A study of Rattus norvegicus with 4 samples.

Results

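A set of 10 genes of the acute phase response and of bacterial sensing was followed across the mammary gland arrays of this study. The genes were Lbp, Cd14, Tlr2, Tlr4, Lcn2, Slpi, Orm1, Hp, Reg3b and Il1b, chosen by name. Each was represented by 1 probe set (a group of short oligonucleotide probes for a transcript) that the platform annotation gives that symbol alone, so that 10 probe sets and 10 of 14217 named genes were described. The study measured rat mammary glands on 4 Affymetrix arrays, 1 per group: homozygous Hirosaki hairless rats (HHR) on day 1 of lactation, heterozygous HHR on day 1 of lactation, Sprague-Dawley rats (SDR) on day 1 of involution, and SDR on day 1 of lactation. HHR are a hairless mutant strain derived from SDR, and involution is the phase in which the gland shrinks once milk is no longer removed. The sources used here give neither the number of animals behind each array nor the length of lactation before involution.

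The acute phase response is the change in secreted proteins that follows injury or infection, best known from the liver but also made by epithelia such as that of the mammary gland. Bacterial lipopolysaccharide is bound by Lbp, passed to Cd14 and from there to the receptor Tlr4 with its partner Ly96, whereas Tlr2 responds to bacterial lipoproteins. Both receptors act through Myd88 and Irak kinases on NF-kB, while acute phase genes are also driven by Stat3 and C/EBP factors. Cd14, Lbp and Lcn2 are known as genes of early involution in the mouse mammary gland.

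Values are MAS5 signals, an intensity on a linear scale that the authors had scaled to a common mean in every array. A floor of 91.5, the pooled 40th percentile, replaced every lower signal before folds were taken, so that a fold against a floored signal is written as "at least". With 1 array per group there were no replicates, so no difference has an error or a test, and a gene was counted as higher or lower when its floored signals differed at least 2-fold. Of the 10 genes, 7 lay above the floor on every array, Orm1 and Hp on 2 arrays, and Reg3b on 1 array. All 6 milk protein genes on the array and all 10 luminal epithelial markers lay above the floor on every array. The Gapdh control probe sets gave a 3′ over 5′ ratio, a measure that grows as RNA degrades, which was 2.30, 1.93 and 1.60 in homozygous HHR, heterozygous HHR and SDR involution, against 1.17 in SDR lactation. The same ratio of actin was 5.91, 7.86 and 4.80, against 4.60 in SDR lactation, so that homozygous HHR was the highest array by Gapdh and heterozygous HHR by actin. The part of RNA quality in the differences below was not tested. The gland was measured as a whole, so fewer cells of a type and less RNA per cell cannot be told apart.

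Promoters from 250 bases before to 50 bases after the transcription start were read from RefSeq (rat build GRCr8) and were found for 7 of the 10 genes, without Lbp, Slpi and Hp. They were searched on both strands for the STAT motif TTCNNNGAA, the C/EBP motif TTGCNNAA, the AP-1 motif TGANTCA and the NF-kB consensus. Shown are the promoters of Tlr2 and Orm1, whose signals were highest in homozygous HHR, of Reg3b, which was above the floor in SDR involution alone, and of Lcn2, a bright gene of all 4 arrays. Each of these promoters held a match. Tlr4 and Lcn2 were also highest in homozygous HHR, and Cd14 was also bright on all 4 arrays. Capitals mark the matches. The Tlr2 promoter (chr2:171504508-171504807, minus strand) holds 3 NF-kB matches, which begin 206, 205 and 42 bases before the start, the first pair overlapping. The Lcn2 promoter (chr3:36081731-36082030, minus strand) holds an NF-kB match 242 bases and a C/EBP match 191 bases before the start. The Orm1 promoter (chr5:81788259-81788558, plus strand) holds an AP-1 match at 228 and a C/EBP match at 123 bases before the start, and the Reg3b promoter (chr4:112419526-112419825, plus strand) holds a STAT match 129 bases before it.
Tlr2: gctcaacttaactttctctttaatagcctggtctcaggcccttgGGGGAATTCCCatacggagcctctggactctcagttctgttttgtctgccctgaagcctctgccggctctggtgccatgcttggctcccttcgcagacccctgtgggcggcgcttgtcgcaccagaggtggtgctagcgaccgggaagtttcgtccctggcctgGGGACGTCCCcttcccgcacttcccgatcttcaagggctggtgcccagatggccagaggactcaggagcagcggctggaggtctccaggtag
Lcn2: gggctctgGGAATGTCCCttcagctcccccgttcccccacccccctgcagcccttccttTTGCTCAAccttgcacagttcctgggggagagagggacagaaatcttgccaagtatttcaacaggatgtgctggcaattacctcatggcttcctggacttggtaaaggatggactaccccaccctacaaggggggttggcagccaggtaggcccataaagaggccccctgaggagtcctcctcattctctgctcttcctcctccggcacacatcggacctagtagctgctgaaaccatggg
Orm1: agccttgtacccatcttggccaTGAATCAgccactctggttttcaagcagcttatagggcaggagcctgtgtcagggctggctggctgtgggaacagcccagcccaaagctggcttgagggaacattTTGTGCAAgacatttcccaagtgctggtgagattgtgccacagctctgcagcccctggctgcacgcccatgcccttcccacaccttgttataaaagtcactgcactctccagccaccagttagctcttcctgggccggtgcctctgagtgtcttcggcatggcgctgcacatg
Reg3b: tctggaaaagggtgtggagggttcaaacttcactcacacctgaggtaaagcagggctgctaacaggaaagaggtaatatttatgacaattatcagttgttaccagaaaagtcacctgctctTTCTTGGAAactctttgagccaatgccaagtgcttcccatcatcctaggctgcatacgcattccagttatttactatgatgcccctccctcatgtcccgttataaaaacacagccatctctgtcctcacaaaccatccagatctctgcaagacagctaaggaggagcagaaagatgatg
No match of one motif overlapped that of another. The promoters of Cd14 and Tlr4, which are not shown, held no match to any of the 4 motifs. That of Il1b held a C/EBP match at +34, after the transcription start. Among the 7 promoters, NF-kB matches were present in 2, C/EBP matches in 3, STAT matches in 1 and AP-1 matches in 1. Of 33469 rat promoters of the same length, 7.51% held the NF-kB consensus, 10.6% the C/EBP motif, 8.87% the STAT motif and 7.33% the AP-1 motif. A match describes the letters of these windows and is not evidence of binding.

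Lbp and Cd14, which bring lipopolysaccharide to its receptor, had a like order over the arrays. Lbp had a signal of 5369.6 in homozygous HHR, 2272.8 in heterozygous HHR and 18996.7 in SDR involution, against 4982.4 in SDR lactation. Cd14 had 16493.5 in homozygous HHR, 4532.6 in heterozygous HHR and 20075.7 in SDR involution, against 5984.6 in SDR lactation. For both genes SDR involution was highest and heterozygous HHR lowest. They differed in homozygous HHR, where Cd14 lay near its involution signal and Lbp near its SDR lactation signal.

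The receptors had another order, with homozygous HHR highest. Tlr2 had 4488.9 in homozygous HHR, 1218.2 in heterozygous HHR and 1562.7 in SDR involution, against 1042.3 in SDR lactation. Tlr4 had 549.8 in homozygous HHR, 359.8 in heterozygous HHR and 272.5 in SDR involution, against 262.5 in SDR lactation. The homozygous HHR signal of Tlr2 stood apart from the other 3 arrays, while for Tlr4 the heterozygous HHR signal lay between homozygous HHR and the SDR arrays.

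Of the secreted defence proteins, Lcn2, a lipocalin that withholds iron from bacteria by binding their siderophores, was bright on every array. Its signal was 33408.3 in homozygous HHR, 15835.6 in heterozygous HHR and 30462.1 in SDR involution, against 25615.9 in SDR lactation, so that heterozygous HHR was the low array. The highest signal of any probe set lay between 47461.8 and 65647.3 on the 4 arrays, and whether differences of so bright a gene were compressed was not tested. Slpi, an inhibitor of neutrophil elastase with antibacterial activity, had 249.5 in homozygous HHR, 332.4 in heterozygous HHR and 1201.9 in SDR involution, against 1315.8 in SDR lactation. It separated the strains: both HHR arrays were low and both SDR arrays high. Reg3b, a C-type lectin induced in gut and pancreas by injury or bacteria, had 52.9 in homozygous HHR, 58.5 in heterozygous HHR and 1557.6 in SDR involution, against 49.1 in SDR lactation. All 3 lactation arrays of Reg3b were below the floor.

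The plasma-type acute phase genes were dim. Orm1, which encodes alpha-1-acid glycoprotein, a carrier of drugs and lipids, had 276.3 in homozygous HHR, 96.6 in heterozygous HHR and 72.8 in SDR involution, against 5.5 in SDR lactation. Hp, haptoglobin, which binds free haemoglobin, had 92.6 in homozygous HHR, 163.2 in heterozygous HHR and 62.7 in SDR involution, against 26.3 in SDR lactation. Both SDR arrays were thus below the floor for both genes. The homozygous signal of Orm1 lay furthest above it, and the heterozygous signal of Hp, 163.2, was close to it. Il1b, the inflammatory cytokine released after cleavage by caspase 1, had 120.7 in homozygous HHR, 175.8 in heterozygous HHR and 318.8 in SDR involution, against 165.3 in SDR lactation. The 3 lactation signals of Il1b lay close to the floor, below that of SDR involution.

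**Figure D1:**
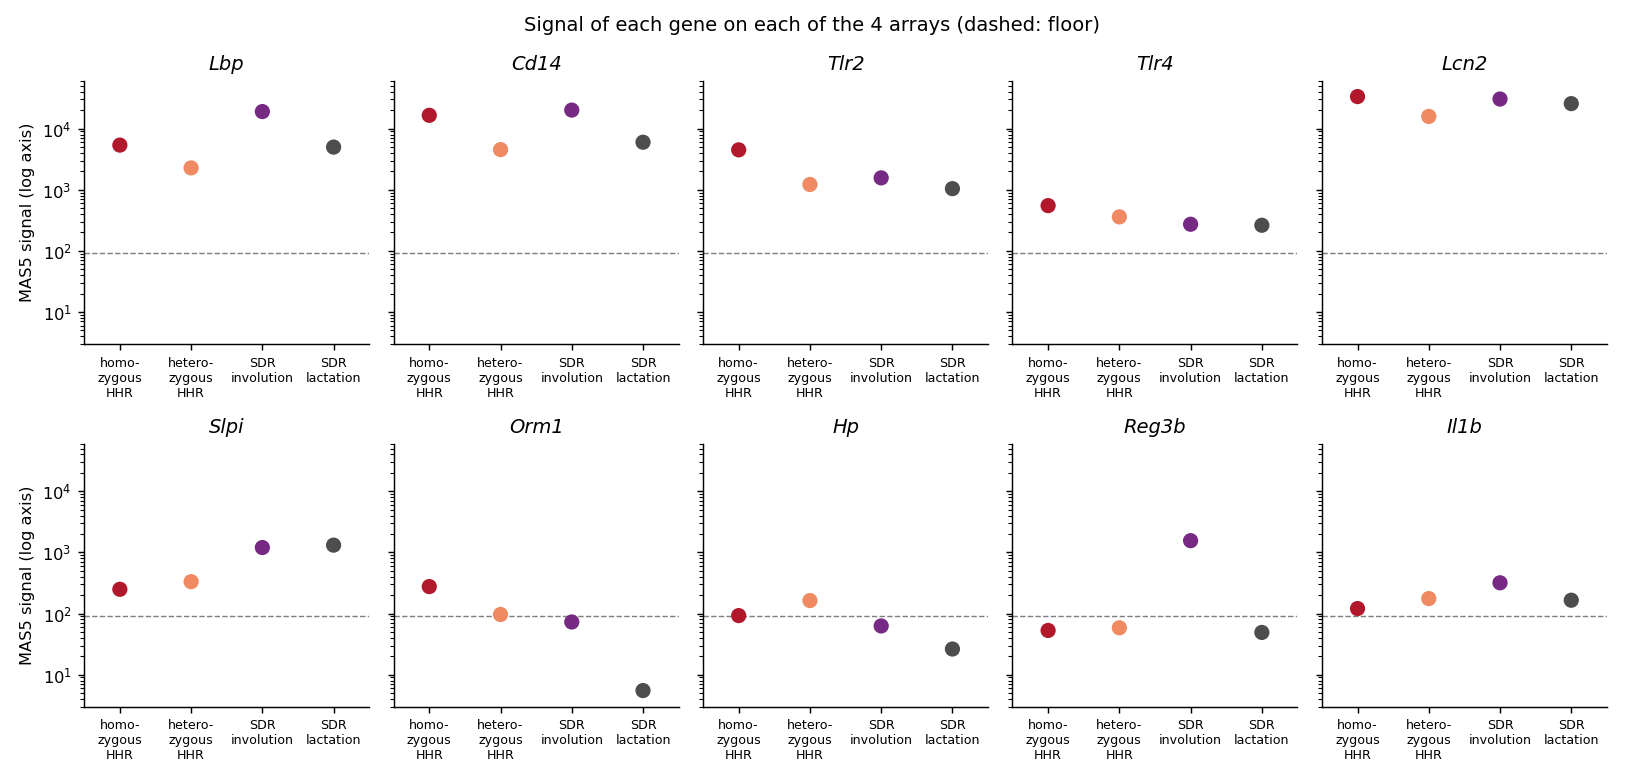
MAS5 signal (log axis) of each of the 10 genes on the 4 arrays, 1 point per array, with the floor of 91.5 as a dashed line. Tlr2 is highest in homozygous HHR (4488.9), Slpi is low on both HHR arrays (249.5 and 332.4), and Reg3b stands above the floor in SDR involution alone (1557.6).

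The study's design text names lactation in SDR and in both HHR genotypes as its comparison, and homozygous HHR were first set against SDR on day 1 of lactation. Cd14 and both Toll-like receptors were higher in homozygous HHR, Slpi was lower, and Lbp and Lcn2 were within 2-fold. Tlr2 was 4.31-fold higher, rank 40 from the highest of 10866 measured genes, and Cd14 was 2.76-fold and Tlr4 2.09-fold higher. Orm1 was at least 3.02-fold higher. Slpi was 5.27-fold lower, rank 9 from the lowest. The log2 difference was 0.38 for Lcn2, 0.11 for Lbp and -0.45 for Il1b, and that of Hp was at least 0.02. Of the 9 genes measured, 4 were at least 2-fold higher, where 3.77% of all measured genes were, and 1 was lower, where 2.72% of all were. The median log2 difference was 0.38 over these 9 genes and 0.02 over all genes. The genes were picked with earlier results of these data known, so these counts are a description. With the floor added as a pseudocount the log2 difference of Tlr4 was 0.86, and with the floor at the 55th percentile that of Orm1 was 0.48, both short of 2-fold.

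In the same comparison the related lists were counted without the 10 genes. Of 15 measured genes of the lipopolysaccharide receptor and Toll-like receptor pathway, none passed 2-fold by its brightest probe set, and the median log2 difference was 0.14. Dimmer probe sets did for 2 of the genes, with log2 differences of 1.88 for the ubiquitin ligase Traf6 and of -1.82 and -1.11 for the inhibitory adaptor Tollip, whose brightest probe sets gave 0.31 and -0.68. Ly96 had 3231.7 in homozygous HHR, against 4810.8 in SDR, and the kinase Irak1 had 5303.9 against 4462.5. Of 14 NF-kB and feedback genes, 1 was higher, Nfkbiz, a nuclear regulator of NF-kB, at 3.33-fold, and 0 were lower, while a dimmer Nfkbiz probe set was below the floor on both arrays. Of 10 inflammatory cytokines and their targets, 4 were higher and 0 lower. They were Cxcl1, a neutrophil chemokine, with a log2 difference of at least 3.70, Nos2, inducible nitric oxide synthase, at 2.81-fold, the adhesion molecule Icam1 at 2.15-fold, and the chemokine Cxcl2, at least 2.11-fold higher. Of 9 acute phase regulators 2 were higher, the transcription factors Cebpd at 8.94-fold and Stat3 at 3.18-fold, while Cebpb had 2831.6 against 2821.7. Further probe sets gave log2 differences of 1.28 for Stat3 and of 2.54 and, near the floor, 0.19 for Cebpd. Of the cytokine receptor subunits in that list, a dimmer probe set each gave -1.08 for Il6st and -1.27 for Lifr, against 0.33 and -0.31 by the brightest.

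The other acute phase proteins were mixed in homozygous HHR, with 1 of 9 higher, the metallothionein Mt2A at 3.82-fold, and 1 lower. The lower gene was Alb, albumin, a negative acute phase protein, at least 2.14-fold lower from a dim SDR signal of 195.9. The other Alb probe set had a log2 difference of -0.85, short of 2-fold. Ceruloplasmin, Cp, had 4669.8 in homozygous HHR, against 3756.9 in SDR, by its brightest probe set, while its other probe sets had log2 differences of -0.36 and -0.14. Of 8 other antimicrobial and milk defence genes 3 were higher and 0 lower, namely Wfdc2, a secreted protein of the same domain family as Slpi, at 6.10-fold, and the calcium-binding pair S100a8 and S100a9, at least 3.55-fold and 3.06-fold higher. The polymeric immunoglobulin receptor Pigr, which carries antibody into milk, had 32090.8 against 17667.0, short of 2-fold. Wfdc2 and Slpi thus differed from SDR in opposite directions, though the SDR signal of Wfdc2, 96.8, was just above the floor.

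**Figure D2:**
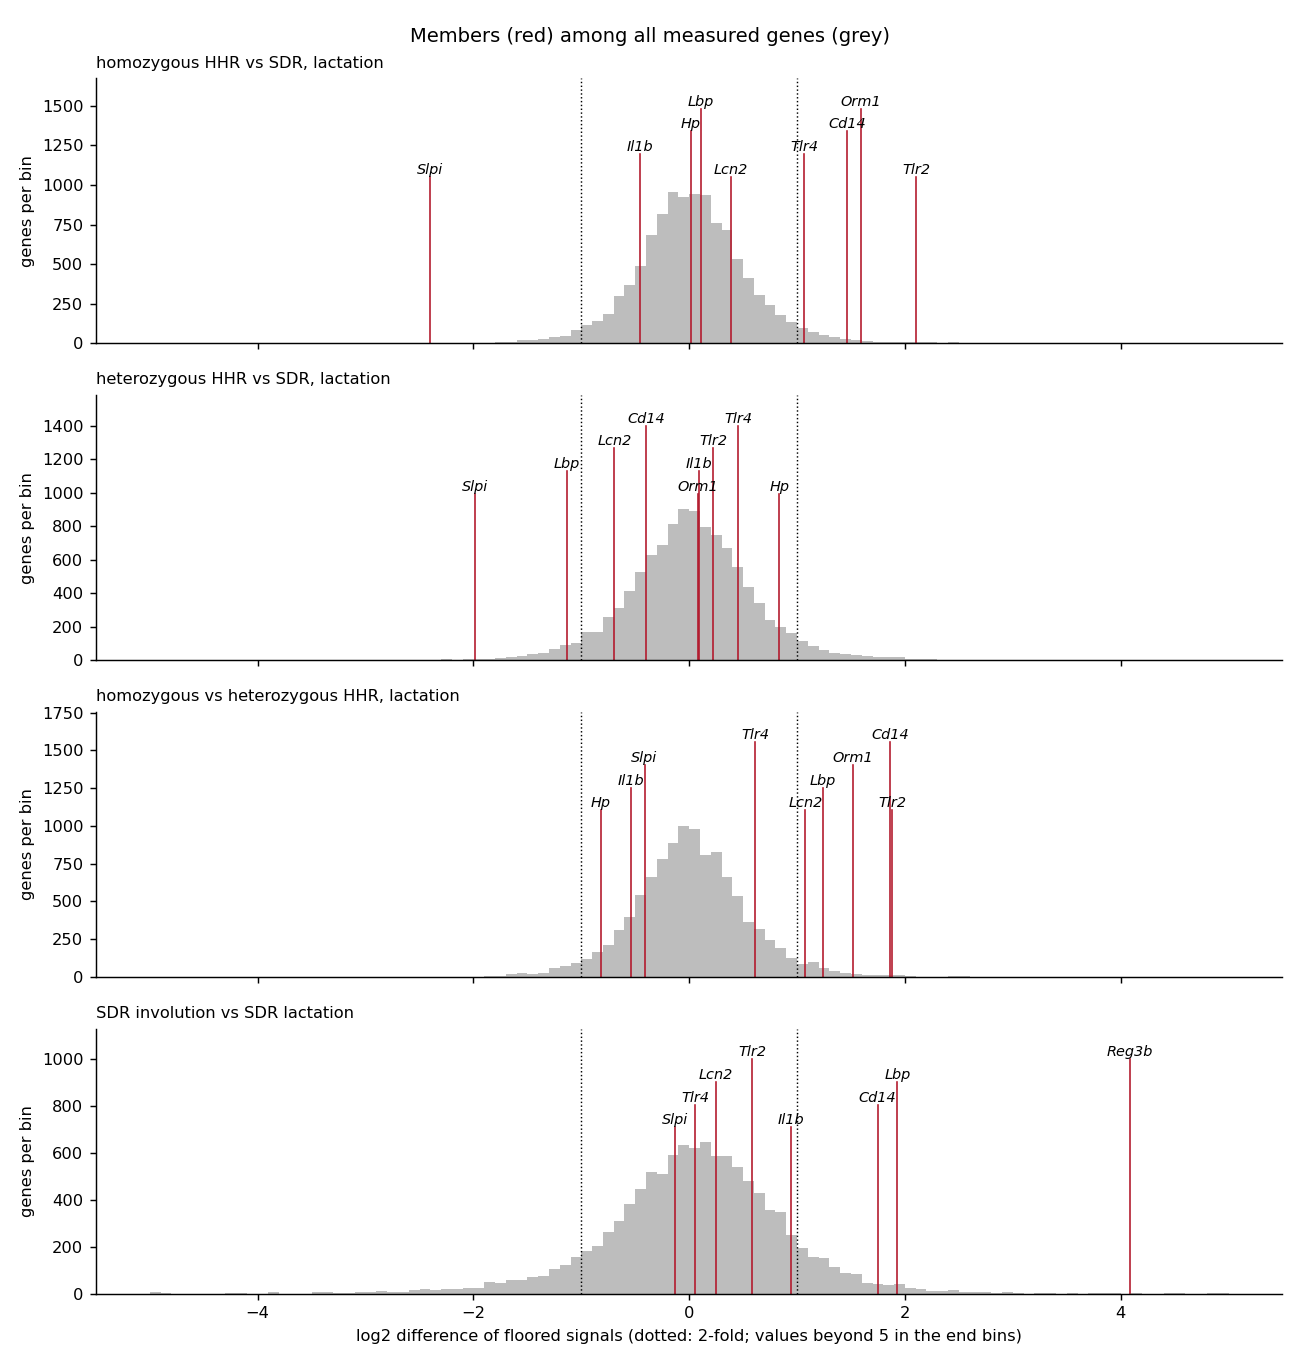
Histograms of the log2 difference of floored signals over all measured genes (grey, genes per bin of the log2 axis), with the measured members of the 10 genes as red lines and 2-fold as dotted lines, for the 4 comparisons. Slpi lies in the lower tail of both panels of HHR against SDR (-2.40 and -1.98), Tlr2 in the upper tail of homozygous HHR against SDR (2.11) and Reg3b far in the upper tail of involution (4.09).

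Heterozygous HHR were set against SDR on day 1 of lactation, with the same SDR array. Slpi and Lbp were lower in heterozygous HHR and none of the 10 genes was at least 2-fold higher. Slpi was 3.96-fold lower, rank 28 from the lowest of 10876 measured genes, and Lbp was 2.19-fold lower. Lcn2 had a log2 difference of -0.69 and Cd14 one of -0.40, both short of 2-fold. Tlr4, with 0.45, and Tlr2, with 0.22, were on the other side of 0 and also short of it. Of the 9 genes measured, 0 were higher, where 4.58% of all measured genes were, and 2 were lower, where 4.15% of all were. The median was 0.08 over the 9 genes and 0.01 over all genes. Hp was at least 1.78-fold and Orm1 at least 1.06-fold higher, and with the floor at the 25th percentile both passed 2-fold, with log2 differences of 1.93 and 1.18. With the floor as a pseudocount Hp passed it as well, at 1.11.

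The related genes gave few differences in heterozygous HHR. Without the 10 genes, 0 of 14 genes of the Toll-like receptor pathway, 0 of 13 NF-kB and feedback genes and 0 of 8 acute phase regulators were past 2-fold in either direction by their brightest probe sets. Dimmer probe sets of 4 of these genes were, with signals of 877.0 in heterozygous HHR, against 219.5 in SDR, for Traf6, and log2 differences of -1.95 and -1.03 for Tollip, -1.42 for Il6st and -1.07 for Lifr. Stat3 had 1621.0 in heterozygous HHR, against 1055.3 in SDR, and Cebpd had 816.4 against 558.6, both short of 2-fold. A dimmer probe set of each had a log2 difference below 0, of -0.12 for Stat3 and -0.25 for Cebpd. Of 9 inflammatory cytokines and targets 1 was lower, the cytokine Il18 at 2.22-fold, and of 9 acute phase proteins 1 was lower, the angiotensin precursor Agt at 2.69-fold. Of 8 antimicrobial and milk defence genes 3 were higher and 0 lower, which were Wfdc2 at 3.72-fold, S100a9 at least 3.04-fold and S100a8 at least 2.69-fold. Both comparisons share the SDR array, against which the same 3 genes are listed above for homozygous HHR. The SDR signal of Wfdc2, 96.8, was just above the floor.

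Homozygous were set against heterozygous HHR to compare the genotypes within the strain. Lbp, Cd14, Tlr2, Lcn2 and Orm1 were higher in the homozygous gland, which joins sensing and secreted genes. Tlr2 was 3.68-fold higher, rank 44 from the highest of 10877 measured genes, Cd14 was 3.64-fold higher with rank 48, and Orm1 was 2.86-fold higher. Lbp was 2.36-fold and Lcn2 2.11-fold higher, and for both genes the heterozygous signal was also below that of SDR lactation. Tlr4 was 1.53-fold higher, and Slpi, at -0.41, Il1b, at -0.54, and Hp, at -0.82, had log2 differences below 0 and short of 2-fold. Of the 9 genes measured, 5 were higher, where 3.76% of all measured genes were, and 0 were lower, where 3.14% of all were. Their median was 1.08, beside 0.00 over all genes. The call of Orm1 ended with the floor at the 55th percentile (0.48) and with the floor as a pseudocount (0.97).

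Around these genes, 0 of 15 genes of the Toll-like receptor pathway passed 2-fold between the HHR arrays. The adaptor Myd88, which was outside the naming rule and picked for its place in the pathway after its values were seen, had 1677.4 in homozygous and 1218.1 in heterozygous HHR. Of 14 NF-kB and feedback genes 2 were higher, Nfkbiz at 2.76-fold and the phosphatase Dusp1 at 2.17-fold, and a further, dimmer Dusp1 probe set had a log2 difference of 0.20. Of 10 inflammatory genes 4 were higher and 0 lower, which were Cxcl1 at 8.20-fold, Nos2 at least 3.48-fold, Il1r1, the interleukin receptor that Il1b acts on, at 2.28-fold, and Cxcl2 at least 2.11-fold. Of 9 regulators Cebpd, at 6.12-fold, and Stat3, at 2.07-fold, were higher. Of 9 acute phase proteins the protease inhibitor Serpina3n, at least 2.35-fold, and Mt2A, at 2.06-fold, were higher, and of 8 antimicrobial genes 0 passed 2-fold. For Cebpd and Stat3 a further probe set gave log2 differences of 2.78 and 1.40, and a further Cebpd probe set, near the floor, gave 0.19. A dimmer Nfkbiz probe set, also near the floor, gave -0.05, and the further Il1r1 probe sets were below the floor on both HHR arrays.

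Involution was set against lactation within the SDR strain. Reg3b, Lbp and Cd14 were higher in involution, and the Toll-like receptors, Lcn2 and Slpi were within 2-fold. Reg3b was at least 17.0-fold higher, rank 19 from the highest of 11014 measured genes. Lbp was 3.81-fold and Cd14 3.35-fold higher. Il1b was 1.93-fold higher and so short of 2-fold, and the log2 difference was 0.58 for Tlr2, 0.25 for Lcn2, 0.05 for Tlr4 and -0.13 for Slpi. Of the 8 genes measured, 3 were higher, where 10.3% of all measured genes were, and 0 were lower, where 8.94% of all were. Orm1 and Hp were below the floor on both arrays. The median was 0.77 over the 8 genes and 0.08 over all genes.

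The scale of the involution array bears on this comparison. Its 18 hybridisation control probe sets, which report RNA spiked in before hybridisation, were lower than in SDR lactation by a mean log2 difference of -0.54. In homozygous HHR the same mean was -0.16, and in heterozygous HHR it was -0.02. With the arrays scaled to these controls, an alternative chosen after seeing the data, the median of all genes in involution moved by 0.50. Under it 3111 genes were higher and 442 lower in involution, against 1129 and 985 with the authors' scaling, and 853 and 1237 with median centring. Il1b and Tlr2 then also passed 2-fold in involution, with log2 differences of 1.49 and 1.12, which relative to the shifted median of 0.58 were again under 2-fold. For homozygous HHR against SDR the control scaling gave 615 genes higher and 183 lower in place of 410 and 296, and against heterozygous HHR 569 and 215 in place of 409 and 341. None of the calls of the 10 genes changed there.

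The related lists were counted for involution in the same way. Of 17 other genes of the Toll-like receptor pathway 0 were higher and 1 was lower, Ly96, which had 1567.0 in involution, against 4810.8 in lactation, 3.07-fold lower. A dimmer Tollip probe set gave -1.66, beside -0.55 by the brightest. Of 14 NF-kB and feedback genes 7 were higher and none lower, the median being 0.77. They included Nfkb2, an NF-kB subunit, at 3.35-fold, and the feedback inhibitors Tnip1 at 2.21-fold, Tnfaip3 at 2.19-fold and Nfkbia at 2.03-fold. These inhibitors lay close to 2-fold, with log2 differences of 1.15, 1.13 and 1.02. The alternatives were not run on the lists, and under median centring Lbp moved from 1.93 to 1.78. Whether the list calls hold under another scaling was not tested. Of 11 inflammatory genes 6 were higher and none lower, the median being 1.48, among them Icam1 at 3.28-fold, the protease Casp1, which activates Il1b, at 2.98-fold, the receptor subunit Il1rap at 2.96-fold and the monocyte chemokine Ccl2 at 2.78-fold. Cxcl1 was at least 11.4-fold higher. Of 9 regulators 3 were higher and 0 lower, namely Stat3 at 10.1-fold, Cebpd at 5.11-fold and Socs3, the feedback inhibitor of Stat3, at least 2.04-fold. A dimmer probe set of each gave log2 differences of 2.44 for Stat3 and 1.68 for Cebpd. The dimmest Cebpd probe set was below the floor on both arrays.

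Other acute phase proteins went both ways in involution, with 3 of 9 higher and 2 lower. Mt2A was 22.6-fold and Serpina3n 2.20-fold higher, Agt was 5.23-fold lower and Alb at least 2.14-fold lower. The other Alb probe set had a log2 difference of -0.93, with its involution signal raised to the floor. Cp was 2.90-fold higher by its brightest probe set, but its other probe sets had log2 differences of 0.23 and -0.28. Of 11 other antimicrobial and milk defence genes 4 were higher and 1 lower. S100a8 was at least 30.7-fold, Wfdc2 20.1-fold and S100a9 at least 15.4-fold higher, and the mucin Muc1, which coats the luminal surface, was 6.51-fold lower. The fourth higher gene, the defensin Defb1, had 222.9 in involution and lay below the floor in lactation, and it was named after its values were seen. Wfdc2 was thus higher in SDR involution while Slpi, of the same domain family, had almost the lactation signal. The fold of Wfdc2 was taken from a lactation signal of 96.8, just above the floor.

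**Figure D3:**
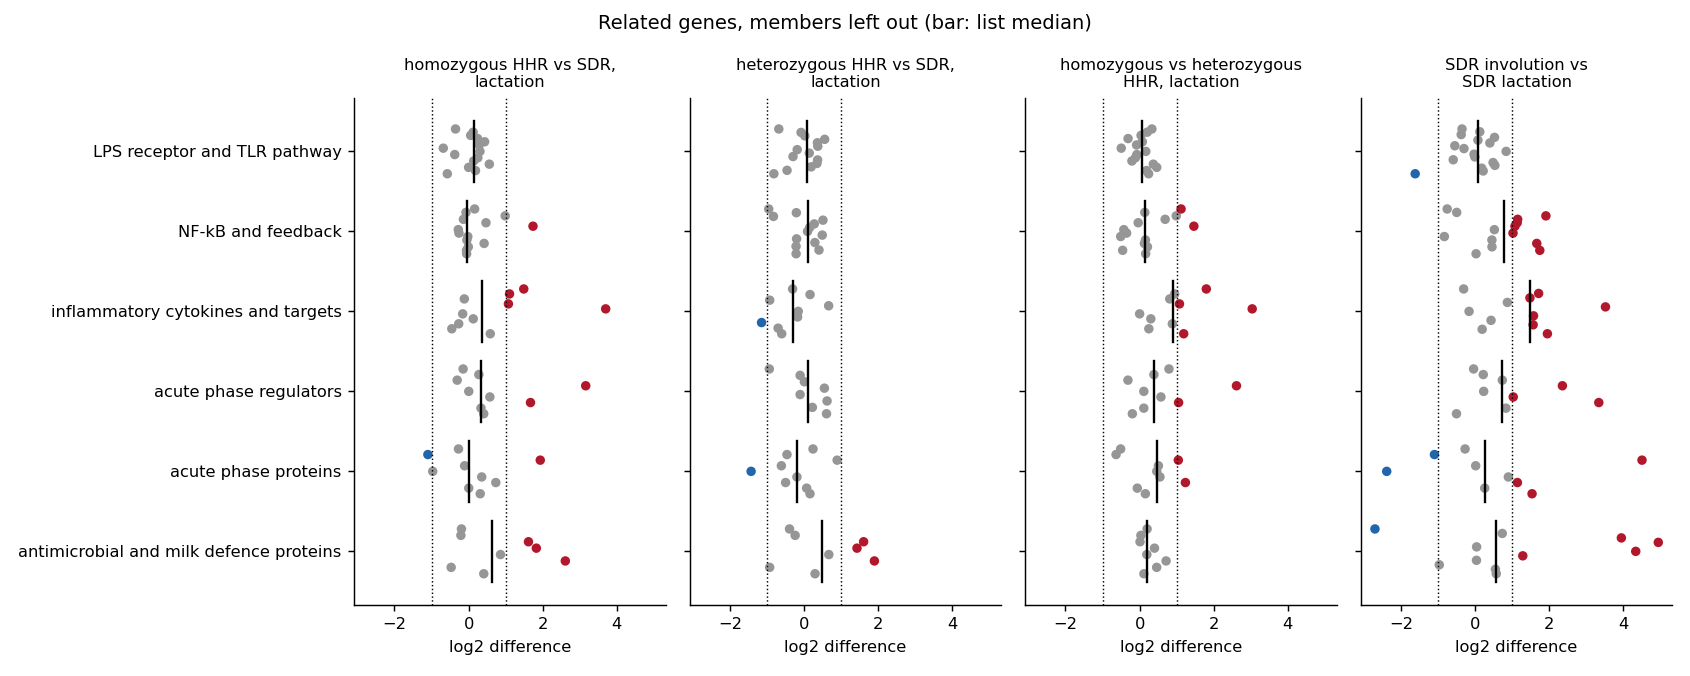
Log2 differences of the measured genes of 6 related lists without the 10 genes, 1 point per gene, red when at least 2-fold higher and blue when at least 2-fold lower, with the list median as a bar and 2-fold as dotted lines. Most points of the Toll-like receptor pathway lie between the dotted lines in every panel, whereas 7 of 14 NF-kB genes are red in involution with the authors' scaling.

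Markers of the cells that could carry these transcripts were summed over each list. The macrophage list, 14 genes, summed to 17245.5 in homozygous HHR, 13397.0 in heterozygous HHR and 20745.6 in SDR involution, against 22261.3 in SDR lactation. It was below SDR lactation on the other 3 arrays, and none of its 13 measured genes was at least 2-fold higher in any of the 4 comparisons. Against SDR lactation 1 of them was lower in homozygous HHR, the surface receptor Adgre1 at 2.82-fold. In heterozygous HHR 3 were lower, Adgre1 at 2.59-fold, the complement subunit C1qa at 2.33-fold and the growth factor receptor Csf1r at 2.04-fold, and the list's median log2 difference was -0.68. The median of the macrophage list was -0.33 in homozygous HHR and 0.04 in involution, each against SDR lactation. Between homozygous and heterozygous HHR it was 0.42, beside 0.00 over all genes. The neutrophil list, 11 genes, summed to 1113.9 in homozygous HHR, 946.8 in heterozygous HHR and 4702.9 in SDR involution, against 802.2 in SDR lactation. That order was set by S100a8 and S100a9, without which the other 9 genes summed to 508.7, 422.4 and 485.8, against 643.7 in SDR lactation, a split made after the values were seen. Of the list's genes, Ncf4, an oxidase subunit, lay above the floor on every array, at 148.2 to 216.9. Csf3r, a growth factor receptor, was above it in heterozygous HHR and SDR involution, and the ficolin Fcnb on both HHR arrays. Ncf1 was just above it in homozygous HHR, at 105.5, and in SDR lactation, at 93.3, and Mmp8 in SDR lactation alone, at 100.5. The granule peptide gene Camp and the chemokine receptor genes Cxcr1 and Cxcr2 were below the floor on every array.

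Epithelial and liver markers were summed in the same way. The luminal epithelial list, 10 genes, summed to 83058.9 in homozygous HHR, 67462.3 in heterozygous HHR and 124164 in SDR involution, against 72524.0 in SDR lactation, the order that Lbp and Cd14 have. In involution 4 of its 10 genes were higher, among them the keratins Krt19 at 4.84-fold, Krt8 at 4.37-fold and Krt18 at 3.46-fold, and 2 were lower, Muc1 and Elf5, a transcription factor of milk-secreting cells, which had 3420.2 in involution, against 13667.5 in lactation. Between the lactation arrays none of the 10 luminal genes passed 2-fold. Their median log2 difference was 0.12 in homozygous HHR and -0.17 in heterozygous HHR, each against SDR, and 0.36 in homozygous against heterozygous HHR. Sums of the inflammatory cytokine list, 19 genes, had the same order, from 9186.1 in SDR involution down to 3058 in heterozygous HHR. The part of either list in the differences of Lbp and Cd14 was not tested. Of the 12 hepatocyte markers, 1 was above the floor in homozygous HHR, 4 in heterozygous HHR and 2 in SDR involution, against 3 in SDR lactation, and their sum lay between 423.6 and 688.7 on the 4 arrays. Of the 4 measured in homozygous HHR against SDR, 1 was higher, the drug-metabolising enzyme Cyp2e1, and 1 lower, Alb by its brightest probe set.

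**Figure D4:**
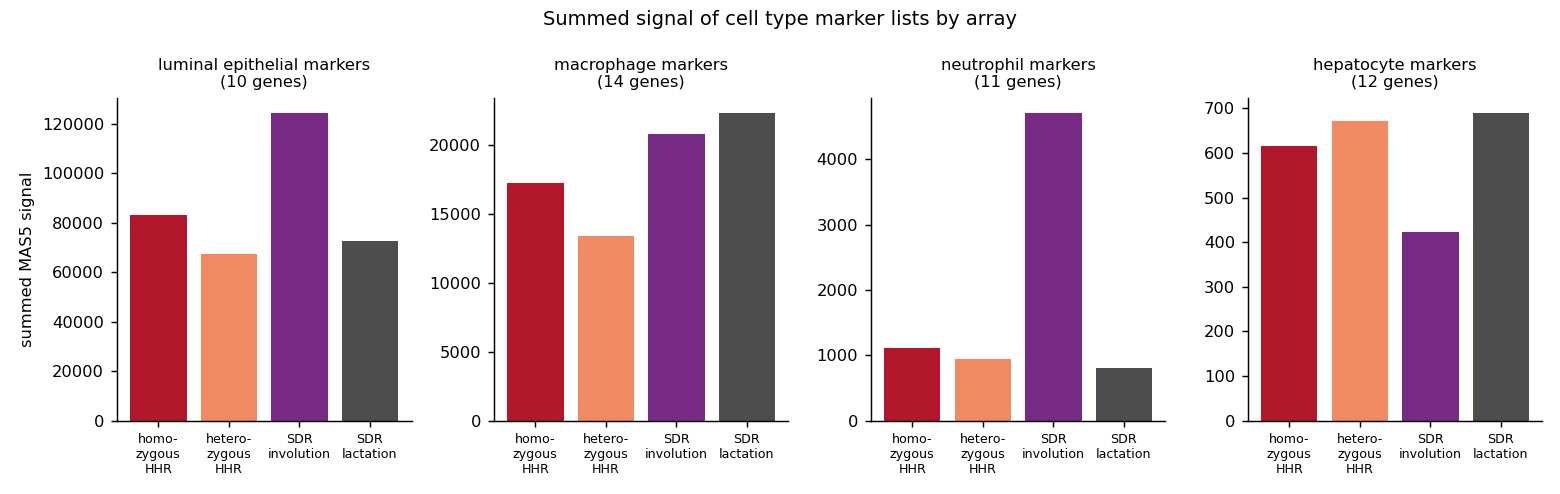
Summed MAS5 signal (linear axis from 0) of 4 marker lists on each of the 4 arrays, 1 bar per array. Luminal epithelial and neutrophil sums are highest in SDR involution (124164 and 4702.9), while the macrophage sum is highest in SDR lactation (22261.3).

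Genes with the nearest profiles over the 4 arrays were sought for each of the 9 genes with a 2-fold range. The measure was the root mean square distance between mean-centred log2 signals, taken after flooring. Nearest to Cd14 were Tafa5, at a distance of 0.04, Efna1 at 0.11 and Slc6a14 at 0.13. Nearest to Lbp were Cpt1a at 0.12, Rtp4 at 0.13 and Ltbp1 at 0.15. Tlr2 was closest to Ccn1, at 0.15, and Reg3b to Tnnt2, at 0.15, C3h15orf48 at 0.19 and Aldh1a3 at 0.24. Slpi was closest to Cwc25, at 0.16, Cma1 at 0.20 and Cited4 at 0.21. Among the 10 genes themselves Tlr2 and Orm1 were the closest to each other, at 0.24, while the nearest of them to Reg3b, Lbp, lay at 0.92. Orm1 was raised to the floor on both SDR arrays, Reg3b on every lactation array and Cwc25 on both HHR arrays. Distances that involve these genes thus rest partly on the floor. With 4 arrays many genes share a profile, and these distances describe the arrays only.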

How the data were processed

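The deposited intensity of each probe set is a MAS5 signal and is linear. MAS5 is named, with no version, by the submitters' processing notes. A mean trimmed by 2% at either end was 500.2 on every array, and the authors' scaling was read from this. Per the labels' protocols, total RNA was turned into biotinylated cRNA. Detection calls were not used here.

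Each array held 31099 probe sets, 57 of them controls. Only the 20832 probe sets with 1 symbol in the platform annotation were named, 0 symbols needed updating, and each of 14217 genes was represented by the brightest of its probe sets after flooring. Values under the floor were raised to it, and genes above it on at least 1 array of a pair were measured. Precision is limited by there being 4 arrays. The 10 genes, the lists and the alternatives were chosen with earlier results of these data known. The brightest genes of each list, at most 4 past 2-fold and 2 below it, were eligible for naming in each comparison, and for each of the 10 genes with a 2-fold range the 3 nearest profiles, of which a selection is given. Named outside this rule, with their values seen, were Stat3 and Cebpd in heterozygous HHR against SDR, Cxcl1 in involution, Myd88, Defb1, Camp, Cxcr1, Cxcr2, Ncf1 and Mmp8. So were Traf6, Tollip, Il6st and Lifr for their dimmer probe sets. The lists were the 6 related ones, and markers of luminal epithelium, milk proteins, macrophages, neutrophils, hepatocytes, myoepithelium, adipocytes, endothelium, and T and B cells. Alternatives were median centring, quantile normalization, the 25th and 55th percentile as floors, the floor as a pseudocount, other choices of probe set and a 3-fold threshold. Python 3.11.15 and pandas 2.3.3 were used, and the steps were tested on simulated data. Changes were planted there only in genes far above the floor, so that test does not bear on genes near the floor or on calls near 2-fold.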

Additional observations from a re-analysis of the deposited data

How the results depend on the processing

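Signs of the 10 genes' differences of at least 2-fold held under every alternative run, and 262 recomputed differences stayed on their side of 2-fold, while 6 came to pass it and 4 no longer did. Each of the 10 genes has 1 probe set, so the choice of probe set could not move it. The differences recomputed with other choices of probe set are among the 262 and were the same by construction. With the floor at the 25th percentile 2 of the genes were higher in heterozygous HHR against SDR in place of 0 (1 with the floor as pseudocount), and Hp in homozygous HHR against SDR reached a log2 difference of 1.12. At a 3-fold threshold 2 genes were higher in homozygous HHR against SDR, 1 lower in heterozygous HHR against SDR, and 2 higher in homozygous against heterozygous HHR. With hybridisation control scaling, chosen after seeing the data, 5 were higher in involution. The counts over all genes moved more. Given as higher and lower for homozygous HHR against SDR, heterozygous HHR against SDR and homozygous against heterozygous HHR, they were 652 and 507, 756 and 689, and 637 and 551 with the floor at the 25th percentile. With the floor as pseudocount they were 261 and 197, 324 and 261, and 261 and 217, and at 3-fold 100 and 51, 130 and 84, and 86 and 44, with 345 and 400 in involution. With the floor at the 55th percentile 191 were lower in homozygous and 297 in heterozygous HHR against SDR. Control scaling gave 183 lower in homozygous HHR against SDR, 215 lower against heterozygous HHR, and 3111 higher and 442 lower in involution. A stricter threshold or a higher floor calls fewer genes by construction, and the cause of the other shifts was not tested. No paired analysis was possible because each group had 1 array. Orm1, Hp, Il1b and Reg3b lay near or under the floor on most arrays, which limits their folds.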

Other observations

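Markers of further cell types were compared to describe the sampled tissue, as values with no test. Myoepithelial markers, of which 8 were measured, had 3 higher and 1 lower in homozygous HHR against SDR, and 1 higher and 1 lower in heterozygous HHR against SDR, with Krt5, a basal keratin, at 5448.3 in homozygous and 6633.1 in heterozygous HHR, against 2564.0 in SDR. In involution 1 was higher and 1 lower. A dimmer probe set of the kinase Mylk had log2 differences of -1.18 in homozygous HHR and -1.32 in involution, beside 0.44 and -0.16 by the brightest. Of 5 adipocyte markers, 0 were higher and 1 was lower in homozygous HHR, 2 were higher and 1 lower in heterozygous HHR, and 0 were higher and 2 lower in involution, each against SDR lactation. Of 7 endothelial markers 1 was lower in either HHR array against SDR, the endothelial claudin Cldn5, and in involution 1 was higher and 2 were lower. Of 5 T and B cell markers 1 was lower in either HHR array, the coreceptor Cd4, and 0 passed 2-fold in involution. No gene of these 4 lists passed 2-fold between homozygous and heterozygous HHR. The 6 milk protein genes had median log2 differences of -0.18 in homozygous HHR, 0.03 in heterozygous HHR and -0.37 in involution, each against SDR lactation. Their signals lay near the highest of each array, and whether their differences were compressed there was not tested.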
